A study of Homo sapiens with 30 samples.

Results

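OPM2 is a human cell line of multiple myeloma, a cancer of antibody-secreting plasma cells, and is known for a t(4;14) translocation that joins NSD2 and FGFR3 to an antibody gene. One FOXM1 knockout clone of OPM2 (KO1) was compared here with unedited OPM2 cells (WT) by poly-A RNA sequencing. The comparison uses 6 of the 30 libraries of the series, 3 of KO1 and 3 of WT, and describes the 10130 of 16407 genes in the OPM2 table that reached 1 FPKM or more in at least 3 of these 6 libraries. FPKM counts sequenced fragments relative to transcript length and library size, and is a level per length. Both groups grew in RPMI 1640 medium with serum and antibiotics. KO1 was made by electroporating Cas9 protein with a guide RNA, and the clone was isolated by limiting dilution and checked by the submitters by Western blot and Sanger sequencing. WT carries no edit. KO1 is 1 clone, so a difference that belongs to the clone and a difference that belongs to the loss of FOXM1 cannot be told apart in this comparison. The other OPM2 groups, another knockout clone (KO2), KO1 with an empty lentiviral vector (KO1EV) and KO1 with a FOXM1c vector (KO1R) enter only where their values stand beside those of KO1. A FOXM1 knockout clone 1 of the myeloma line Delta47 (KO1) and unedited Delta47, which share no library with OPM2, are used in the same way.

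FOXM1 is a forkhead transcription factor that is made and activated late in the cell cycle. With the MuvB complex it binds promoters of genes needed for G2 and mitosis, among them CDC25B, PLK1 and cyclin B. Plasma cells and myeloma cells secrete large amounts of antibody chains, and they rely on the unfolded protein response, in which IRE1 and XBP1, ATF6, and PERK with ATF4 raise chaperones and degradation factors of the endoplasmic reticulum.

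The submitters used 3 guides against exon 2 of FOXM1, and the sources do not say which of them made KO1. They are shown because they place the edit within the gene. In lower case below is the 20-base target and in capitals the PAM, the motif beside the target that Cas9 needs, read from the FOXM1 transcripts of GENCODE v29.

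Guide 1: ttgagaatcagtggccgacgGGG
Guide 2: tgagaatcagtggccgacggGGG
Guide 3: taatgaaaactagcccccgtCGG

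In GRCh38, guide 1 lies on the plus strand at chr12:2874444-2874463, guide 2 on the plus strand at chr12:2874445-2874464, and guide 3 on the minus strand, which is the strand of the gene, at chr12:2874461-2874480. All 3 matched exon 2 of 4 annotated FOXM1 transcripts. The targets of guides 1 and 2 lie wholly within the coding sequence, and that of guide 3 begins 2 bases before it. Guides 1 and 2 share 19 bases, and all 3 share 3.

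FOXM1 transcript (gene ID 2305) was 91.2, 93.3 and 91.7 FPKM in the 3 KO1 libraries and 175.3, 175.6 and 176.8 FPKM in WT. The KO1 libraries lay together, far below all WT libraries, and roughly in the middle between WT and 0. The mean fell from 175.9 ± 0.804 to 92.1 ± 1.08 FPKM (SD, n = 3), a log2 difference of -0.93 on the log2(FPKM + 1) scale (SE 0.040, limma adjusted p = 2.95e-08). All differences below are on this scale, KO1 minus WT. The mean was 106.7 FPKM in KO1EV, 277.5 in KO1R and 62.1 in KO2. An FPKM over the whole gene does not show the edited bases, and FOXM1 protein is not measured in these files.

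Differences between the groups were many and mostly small. Genes with an adjusted p under 0.05 in limma, a linear model that shares information on the spread between genes, count as called, and "rose" and "fell" are used for called genes alone. Of the 10130 genes, 5580 were called (55.1%), with 3619 higher in KO1 (35.7%) and 1961 lower (19.4%). Counts for gene lists below are to be read beside these shares. At 1.5-fold or more 720 were called (7.11%), 495 higher (4.89%) and 225 lower (2.22%), and at 2-fold or more 107 were higher (1.06%) and 53 lower (0.523%). The split depends on the scaling. Called genes were higher in 64.9% of cases with the FPKM as deposited, in 49.4% after quantile scaling and in 49.2% after scaling to a common median, and the median difference over all genes was 0.08, 0.00 and 0.00. For 6185 genes (61.1%) the 3 KO1 values and the 3 WT values did not overlap. Pearson correlations of log2(FPKM + 1) across genes were 0.996 to 0.998 within the groups and 0.978 to 0.982 between them. The labels do not say that the 3 libraries of a group come from separate cultures, and the p-values rest on the spread of these libraries, which may be technical.

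The largest rise was in EEF1A2, which encodes a form of the elongation factor eEF1A normally made in muscle and neurons. Its level was 520.9, 564.5 and 572.7 FPKM in KO1 and 47.4, 49.6 and 52.6 FPKM in WT. The difference was 3.44 (SE 0.053, limma adjusted p = 1.50e-11), and the KO1 libraries lay far above WT and close together. EEF1A2 was also high in the other edited groups, at a mean of 333.7 FPKM in KO1EV, 433.1 in KO1R and 308.7 in KO2. The near-identical EEF1A1 may share reads with it, and how such reads were counted is not given in the sources used here.

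Genes at or near 0 in WT were switched on in KO1. ANO1, a calcium-activated chloride channel, was 9.96, 9.67 and 8.98 FPKM in KO1 against 0.11, 0.05 and 0.06 in WT. THEMIS, a signalling protein of developing T cells, was 6.09, 6.59 and 6.41 FPKM in KO1 against 0.03, 0.10 and 0.03 in WT. These 2 genes were the only ones of the 10130 below 0.5 FPKM in every WT library and at 5 FPKM or more in every KO1 library. ANO1 stayed high in KO1EV (7.43 FPKM) and was 1.04 in KO1R and 0.52 in KO2. THEMIS was 2.87 FPKM in KO1EV, 0.457 in KO1R and 3.36 in KO2.

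The other 9 of the 12 largest rises belonged to unlike families. MT1E, a metal-binding metallothionein with close copies in the genome, rose from 10.2 ± 1.59 to 77.0 ± 5.61 FPKM (SD, n = 3). GAS7, a growth arrest gene of neurons, rose from 0.73 ± 0.115 to 9.34 ± 0.206 FPKM, and AFAP1L2, an actin-associated adaptor, from 8.59 ± 0.367 to 50.1 ± 4.93 FPKM. DHRS2, a mitochondrial reductase, rose by 2.45 and CD7, a surface protein of T and NK cells, by 2.36. RAP1GAP2, which switches off the GTPase Rap1, rose by 2.27, and SSX1, a cancer-testis antigen with close copies, by 2.20. PDIA2, a protein disulphide isomerase of the pancreas, rose by 2.17 and SMARCD3, a subunit of the BAF chromatin remodelling complex, by 2.11. The largest limma adjusted p among the 12 rises was 7.56e-08, but the 12 were chosen among called genes. ANO1, THEMIS, GAS7 and SSX1 were below 1 FPKM in every WT library. These passed the filter through KO1 alone, which fixed their direction beforehand. Of the 12, all but GAS7 and PDIA2 had a lower mean in both vector groups, KO1EV and KO1R, than in KO1. For 3 of them KO1EV or KO1R came close to WT. CD7 was 19.2 ± 2.32 FPKM in KO1, 2.79 in KO1EV and 0.927 in KO1R beside 2.93 in WT. DHRS2 was 14.9 ± 1.61 in KO1, 3.91 in KO1EV and 2.15 in KO1R beside 1.93 in WT. SMARCD3 was 9.93 ± 0.85 in KO1, 3.72 in KO1EV and 1.42 in KO1R beside 1.54 in WT.

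MAGED1, a MAGE family protein, had the largest fall and was the only gene below 0.5 FPKM in every KO1 library and at 5 FPKM or more in every WT library. It was 0.27, 0.16 and 0.32 FPKM in KO1 and 18.3, 17.9 and 19.7 in WT (log2 difference -3.97, SE 0.072, limma adjusted p = 4.39e-11). NMRAL1, an NADPH sensor, fell from 9.56 ± 1.47 to 0.85 ± 0.148 FPKM (SD, n = 3), and GNG10, a G protein gamma subunit, from 5.90 ± 0.513 to 0.437 ± 0.166. HLTF, a DNA translocase that remodels stalled replication forks, fell from 6.34 ± 0.568 to 0.463 ± 0.110. These 4 nearly silent genes were present in KO1EV, where MAGED1 was 8.76, NMRAL1 5.33, GNG10 2.70 and HLTF 5.70 FPKM. In KO1R all 4 were again below 1 FPKM, at 0.527, 0.620, 0.0767 and 0.683. In KO2, HLTF was low (0.457), and MAGED1 was 21.97, NMRAL1 15.4 and GNG10 7.58 FPKM. MAGED1, GNG10 and HLTF were below 1 FPKM in every KO1 library. They passed the filter through WT alone, which fixed their direction beforehand.

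SEL1L fell most among genes expressed at a high level. It encodes the adaptor that holds the ubiquitin ligase HRD1 in the endoplasmic reticulum membrane. Its level was 27.2, 25.9 and 24.9 FPKM in KO1 and 107.0, 101.8 and 96.8 in WT (log2 difference -1.93, SE 0.054, limma adjusted p = 1.49e-09). SEL1L had a mean of 40.3 FPKM in KO1EV and 50.1 in KO1R. In KO2 it was 136.0 and 141.0 FPKM in replicates 1 and 2, above WT, and 32.7 in replicate 3. SEL1L lies in a stretch of chromosome 14, described with the chromosomes, in which other genes were lower too. The remaining 7 of the 12 largest falls were GSTM1, a glutathione transferase with close copies (-1.88), ZBP1, a sensor of Z-form nucleic acids (-1.87), CCL3, a chemokine that recruits osteoclast precursors (-1.76), FLRT1, an adhesion protein (-1.68), MYBPC2, a myosin-binding protein of fast muscle (-1.54), GLIPR1 (-1.53) and TRIB3, a pseudokinase induced by ATF4 and CHOP (-1.49). CCL3 was 11.7, 9.06 and 10.3 FPKM in KO1 against 36.1, 36.4 and 39.0 in WT. The 12 falls, too, were chosen among called genes, and their largest limma adjusted p was 1.58e-07.

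**Figure D1:**
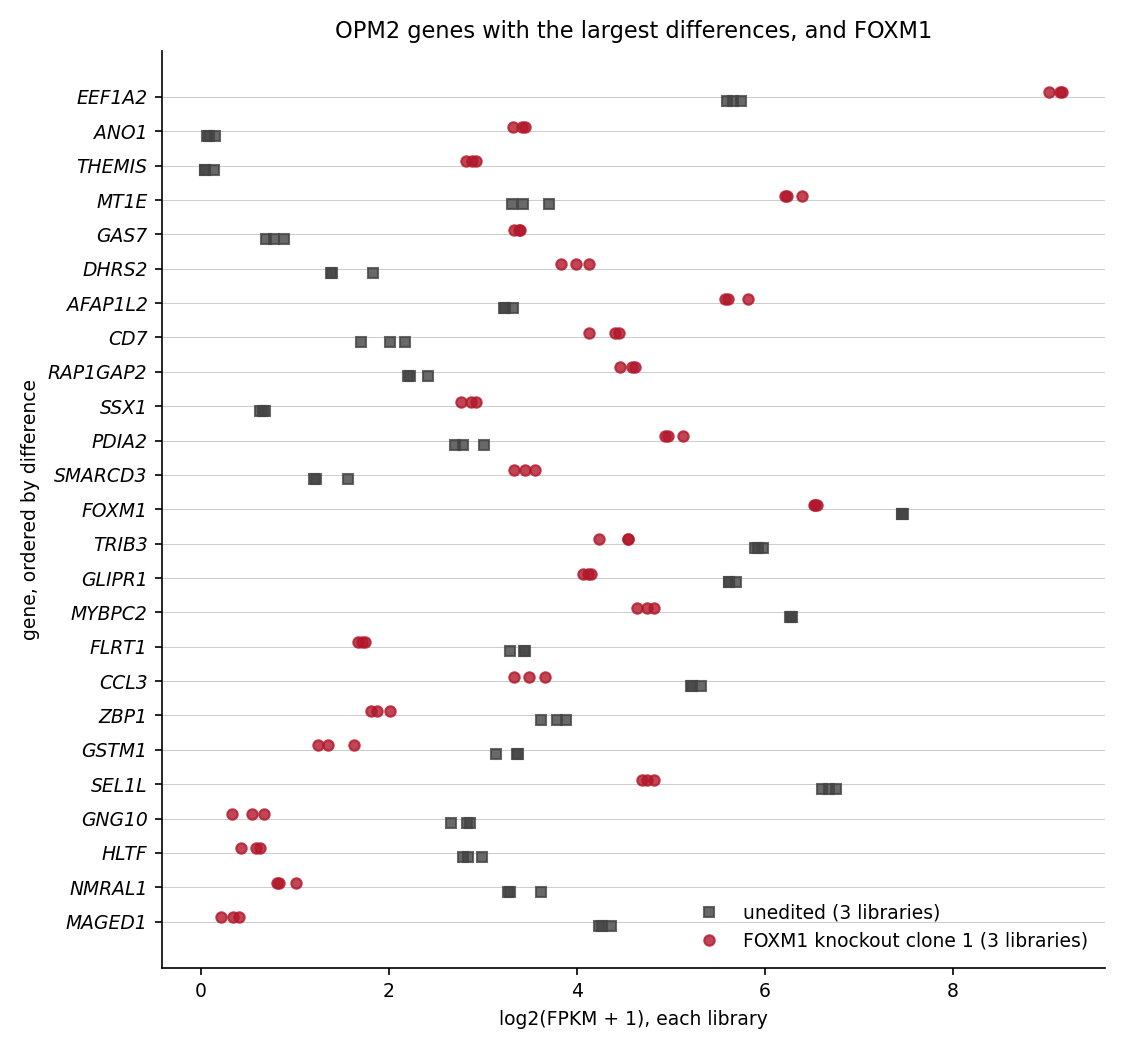
Level of the 12 genes with the largest rise, the 12 with the largest fall and FOXM1, as log2(FPKM + 1) on the horizontal axis. Circles are the 3 KO1 libraries and squares the 3 WT libraries, which do not overlap for any of these genes. MAGED1 sits near 0 in KO1 and ANO1 and THEMIS near 0 in WT.

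The mitotic entry genes CDC25B, PLK1 and CCNB1 fell, and most of the mitotic programme did not. CDC25B, the phosphatase that starts activation of CDK1, was 33.8, 38.6 and 36.3 FPKM in KO1 and 94.5, 96.1 and 100.6 in WT. PLK1, the mitotic kinase, was 65.5, 66.3 and 65.2 FPKM in KO1 and 140.2, 154.4 and 153.1 in WT. CCNB1, which encodes cyclin B1, was 66.0, 63.2 and 71.3 FPKM in KO1 and 121.1, 127.1 and 125.0 in WT. CDC25B fell by 1.40 (SE 0.055), PLK1 by 1.17 (SE 0.048) and CCNB1 by 0.89 (SE 0.052), each with every KO1 library far below every WT library. GPSM2, which orients the spindle, fell from 8.45 ± 0.32 to 4.69 ± 0.39 FPKM (SD, n = 3), and CENPA, the histone of centromeres, from 18.7 ± 0.56 to 12.7 ± 0.52. Both were chosen after their values were seen. NEK2, a centrosome kinase, fell by 0.38. Other genes of mitotic entry did not fall. CDC25C rose by 0.26, and CDK1 (-0.12) and CCNB2 (0.01) were not called, all chosen after their values were seen.

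Other genes of late cell cycle were higher in KO1. BUB1B, the checkpoint kinase BUBR1, rose from 29.8 ± 0.229 to 46.9 ± 0.918 FPKM (SD, n = 3; log2 difference 0.64). AURKA rose by 0.34 and BIRC5, which encodes survivin, by 0.34. AURKB rose by 0.20 (limma adjusted p = 0.0174), but its adjusted p was 0.0842 after scaling to a common median, and 0.0532, 0.0797 and 0.0548 without KO1 replicate 2, KO1 replicate 3 or WT replicate 1. CENPF and MKI67 did not pass the test, with differences of 0.14 (limma adjusted p = 0.0582) and 0.18 (adjusted p = 0.115). With the replicate number as a block both passed, at limma adjusted p = 0.00747 and 0.00904. They also passed without WT replicate 2 (adjusted p = 0.0382 and 0.0454), and CENPF without KO1 replicate 3 (0.0277). Over the list of 68 late cell cycle genes, all tested, 32 rose (47.1%, beside 35.7% of all genes) and 14 fell (20.6%, beside 19.4%). The other 22 were not called, and the median difference was 0.14 beside 0.08 for all genes. At 1.5-fold or more 4 fell (CDC25B, PLK1, CCNB1 and GPSM2) and 2 rose (BUB1B and CDCA3).

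The short element TTTGAA, known as CHR, is where MuvB binds many late cell cycle promoters. It was searched on both strands in the 250 bases before each gene start in RefSeq (GRCh38.p14). It was present for 32 of the 60 late cell cycle genes with a window (53.3%), beside 11.7% of all 8466 tested genes with a window and 13.3% of all 35116 windows. Of the 32 genes with it, 13 rose, 6 fell and 13 were not called, and the median difference was 0.10, against 0.16 for those without it. The stretches of 4 such genes are shown because 2 of them fell and 2 rose with the same letters, printed in capitals.

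PLK1: cagcgccgcgTTTGAAttcggggagg
GPSM2: gcgttgtcggTTTGAAtgagagcgcc
BUB1B: gaccgttaaaTTTGAAacttggcggc
CDC20: acggttggatTTTGAAggagccaata

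They lie on the plus strand of GRCh38.p14 at chr16:23678850-23678875 (PLK1), chr1:108876941-108876966 (GPSM2), chr15:40161036-40161061 (BUB1B) and chr1:43358906-43358931 (CDC20). The capitals end 23, 28, 17 and 59 bases before the gene start. CDC20, an activator of the anaphase-promoting complex and chosen after its value was seen, rose by 0.33. A match of letters is a description of the window and does not show that a factor binds there.

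Of 52 tested genes of G1/S and DNA replication 25 rose (48.1%, beside 35.7% of all genes) and 11 fell (21.2%, beside 19.4%), with a median difference of 0.13. MCM4 and MCM5 belong to the same replicative helicase and went opposite ways. MCM4 was 115.3, 118.4 and 116.9 FPKM in KO1 and 77.0, 77.6 and 77.1 in WT, and MCM5 was 44.1, 50.7 and 49.3 in KO1 and 74.9, 83.5 and 84.9 in WT. GINS4, a subunit of the helicase's partner complex, rose by 0.69 and PRIM1, the primase, fell by 0.59. SKP2, the ubiquitin ligase subunit that degrades p27, rose by 0.14 (limma adjusted p = 0.0419), a call lost in 10 of the 17 other settings tried. Of 44 DNA repair genes, 19 rose (43.2%, beside 35.7% of all genes) and 4 fell (9.09%, beside 19.4%). XRCC3 of homologous recombination rose by 0.69 and PRKDC, the DNA-PK catalytic subunit, by 0.75, while HLTF fell as above. After quantile scaling 12 DNA repair genes rose and 6 fell, beside 2558 and 2618 of all 10130 genes.

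The unfolded protein response was lower in KO1 almost without exception. Of the 38 genes on the list, all tested, 36 fell (94.7%, beside 19.4% of all genes), none rose, and the median difference was -0.43. DERL1 (-0.03) and ERO1A (0.08) were not called. At 1.5-fold or more 12 fell. Next to SEL1L these were led by CRELD2, an ER stress gene, at 12.1, 12.8 and 11.8 FPKM in KO1 and 27.0, 30.0 and 33.8 in WT. ERN1, which encodes the sensor IRE1, was 13.9, 16.7 and 15.1 FPKM in KO1 and 34.8, 35.8 and 34.0 in WT. HERPUD1, a component of ER-associated degradation, was 141.1, 151.3 and 153.7 FPKM in KO1 and 320.3, 317.7 and 327.0 in WT. In all 3 genes the KO1 libraries lay close together and below every WT library.

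The ER stress element, bound by ATF6 with NF-Y, is spelled CCAAT, then 9 bases of any kind, then CCACG. Searched on both strands in the same windows, it was present for 8 of the 34 unfolded protein response genes with a window (23.5%), beside 0.189% of all tested genes and 0.0740% of all windows. All 8 fell, with a median of -0.32, beside -0.46 for those without it. The stretches of 4 of them are shown, read along the strand on which the element, in capitals, appears.

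HSPA5: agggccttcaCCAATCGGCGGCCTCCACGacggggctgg
HSP90B1: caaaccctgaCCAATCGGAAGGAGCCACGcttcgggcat
XBP1: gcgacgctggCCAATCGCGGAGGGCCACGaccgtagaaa
CRELD2: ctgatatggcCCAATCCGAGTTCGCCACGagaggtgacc

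In GRCh38.p14 they lie at chr9:125241381-125241419, minus strand (HSPA5), chr12:103930206-103930244, plus strand (HSP90B1), chr22:28800593-28800631, minus strand (XBP1), and chr22:49918544-49918582, minus strand (CRELD2). Of these, HSPA5 and HSP90B1 were chosen after their values were seen. HSPA5, the chaperone BiP, was 111.2, 108.2 and 107.0 FPKM in KO1 and 161.3, 151.0 and 149.8 in WT (-0.50). HSP90B1, the chaperone GRP94, fell by 0.39. XBP1, the transcription factor activated by IRE1, was 1147.1, 1222.8 and 1291.1 FPKM in KO1 and 1402.7, 1368.2 and 1410.8 in WT. Its fall of 0.19 (limma adjusted p = 0.00671) was not called after quantile scaling (-0.11, adjusted p = 0.138), after removal of the trend with GC content and length (adjusted p = 0.134) or with all 15 OPM2 libraries in the fit (adjusted p = 0.145). The spliced form of XBP1 cannot be told apart from the unspliced in a gene-level value.

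ATF4 and CHOP target genes were lower too. Of 41 on the list 34 were tested, 32 fell (94.1%, beside 19.4% of all genes), none rose, and the median difference was -0.45. At 1.5-fold or more 14 fell. DDIT3, which encodes CHOP, was 17.4, 18.6 and 21.5 FPKM in KO1 and 53.4, 50.3 and 54.3 in WT. TRIB3 was 17.9, 22.4 and 22.3 FPKM in KO1 and 58.6, 59.9 and 62.2 in WT. INHBE, a secreted activin subunit, fell from 78.8 ± 1.49 to 31.8 ± 1.81 FPKM (SD, n = 3), and PPP1R15A, which encodes the phosphatase subunit GADD34, from 65.5 ± 0.285 to 28.0 ± 2.12. SESN2, a sestrin that restrains mTORC1, fell by 0.79. ATF4 itself, chosen after its value was seen, fell by 0.38, with 711.5, 798.4 and 817.0 FPKM in KO1 and 997.0, 1002.4 and 1016.2 in WT. VEGFA (0.10) and EPRS (-0.09) were not called. EIF4EBP1, an ATF4 target that restrains cap-dependent translation, is on the list of translation factors and fell by 0.74.

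TGATGNAA is the core of the composite element that ATF4 binds with C/EBP proteins. Searched in the same way, it was present in the windows of 8 of the 28 genes of this list with one (28.6%), beside 2.11% of all tested genes and 3.14% of all windows. All 8 fell, with a median of -0.39, beside -0.50 for those without it. Shown are 3 of them, the element in capitals.

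ASNS: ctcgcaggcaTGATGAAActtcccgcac
CHAC1: ctggcaggagTGATGCAAcggcagggga
CEBPG: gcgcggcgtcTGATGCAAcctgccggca

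They lie in GRCh38.p14 at chr7:97872459-97872486, minus strand (ASNS), chr15:40953252-40953279, minus strand (CHAC1), and chr19:33374061-33374088, plus strand (CEBPG). All 3 are examples picked once values had been seen. ASNS, asparagine synthetase, fell from 253.1 ± 15.5 to 157.6 ± 13.9 FPKM (SD, n = 3). CHAC1, which breaks down glutathione, fell by 0.89 and CEBPG, a C/EBP partner of ATF4, by 0.40.

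Cytosolic chaperones and nucleolar genes went the other way. Of 35 tested heat shock chaperones 29 rose (82.9%, beside 35.7% of all genes) and 2 fell (5.71%, beside 19.4%), with a median difference of 0.33. HSPA8, the constitutive HSP70, was 937.0, 811.3 and 840.6 FPKM in KO1 and 455.0, 440.2 and 435.3 in WT (0.96). FKBP4, a co-chaperone of HSP90, rose from 34.1 ± 0.182 to 60.6 ± 2.40 FPKM (SD, n = 3), and HSP90AA1 from 293.0 ± 20.1 to 461.5 ± 19.8. SERPINH1, a collagen chaperone that sits in the endoplasmic reticulum, fell by 0.61. The heat shock element is spelled GAA, TTC and GAA in a row, or TTC, GAA and TTC on the other strand, each 2 bases apart. It was present in the windows of 7 of 32 of these genes (21.9%), beside 0.390% of all tested genes and 0.441% of all windows. Of the 7, 5 rose, SERPINH1 fell and HSPD1 was not called. Shown is 1 site of each of the 2 of them with the largest rise, the element in capitals.

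HSPA8: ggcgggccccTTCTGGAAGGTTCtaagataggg
HSP90AA1: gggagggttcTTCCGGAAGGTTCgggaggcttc

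Both lie on the minus strand of GRCh38.p14, at chr11:123062169-123062201 (HSPA8) and chr14:102087110-102087142 (HSP90AA1).

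Of 48 genes of ribosome biogenesis and MYC targets, all tested, 42 rose (87.5%, beside 35.7% of all genes). None fell, and the median difference was 0.34. NOP2, a methyltransferase of ribosomal RNA, rose from 28.0 ± 1.60 to 48.4 ± 2.13 FPKM (SD, n = 3). MRTO4, an assembly factor of the large subunit, rose by 0.61, and LYAR and RRP9, of the nucleolus, by 0.66 each. MYC was 206.7, 241.4 and 245.1 FPKM in KO1 and 172.7, 186.3 and 188.5 in WT (0.34, limma adjusted p = 0.00134). The transcripts of the ribosomal proteins themselves did not rise with these genes. Of 74 cytosolic ribosomal protein genes 45 fell (60.8%, beside 19.4% of all genes) and 1 rose (1.35%, beside 35.7%), with a median of -0.16. After quantile scaling 20 fell and 7 rose, while 2618 of all 10130 genes were called lower and 2558 higher. The share of falls in the list was then near that of all genes. RPS13 had the largest fall, with 1334.4, 1107.5 and 1121.4 FPKM in KO1 and 1925.2, 1905.1 and 1948.1 in WT, and means of 1828.3 in KO1EV, 2008.0 in KO1R and 1958.4 in KO2. RPS26, the member that rose (0.51), and many others have processed copies in the genome that could share reads.

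These lists also moved in 2 libraries outside this comparison that stand apart from the other libraries of their own groups, replicate 3 of KO2 and replicate 3 of KO1EV. The mean log2(FPKM + 1) of the unfolded protein response list was 5.94 to 5.95 in KO1 and 6.45 to 6.49 in WT. It was 6.14, 6.14 and 5.87 in KO1EV replicates 1, 2 and 3, 6.20 to 6.22 in KO1R, and 7.05, 7.05 and 5.69 in KO2. For ATF4 and CHOP genes it was 6.06 to 6.20 in KO1 and 6.68 to 6.70 in WT, with 5.40 in KO1EV replicate 3 and 5.17 in KO2 replicate 3. Heat shock chaperones stood at 6.30 to 6.37 in KO1 and 5.97 to 6.03 in WT, with 6.54 and 6.69 in the same 2 libraries. Ribosome biogenesis genes stood at 5.38 to 5.43 in KO1 and 5.04 to 5.05 in WT, with 5.71 and 5.90 there. On all these lists KO1 lay on the same side of WT as replicate 3 of KO2 and of KO1EV. The part of whatever sets these 2 libraries apart in the difference of KO1 was not tested. When all 15 OPM2 libraries set the spread, 2 unfolded protein response genes and 3 ATF4 and CHOP genes fell, and 6 heat shock and 2 ribosome biogenesis genes rose. Without the 2 libraries in that fit the counts were 36, 31, 31 and 43.

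**Figure D2:**
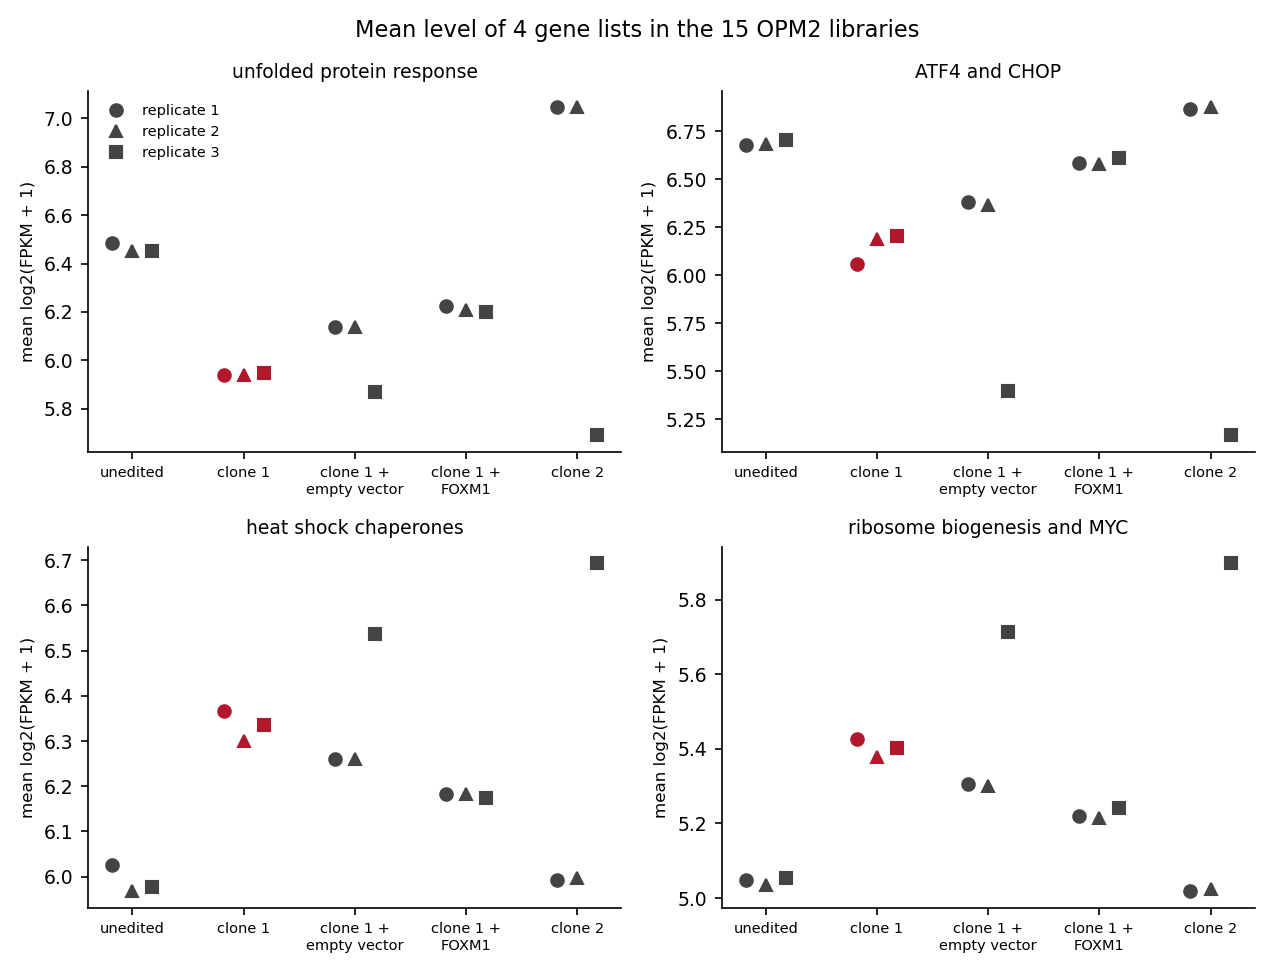
Mean log2(FPKM + 1) of 4 gene lists, a level, in each of the 15 OPM2 libraries. Marker shapes are replicates 1 to 3, KO1 (clone 1) is in red, clone 2 is KO2, the vector groups are KO1EV and KO1R, and each panel has its own vertical scale, which does not start at 0. The 3 KO1 libraries sit apart from the 3 WT libraries in every panel, and replicate 3 of KO1EV and of KO2 lies away from its group in the direction of KO1.

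Genes of glucose metabolism moved in both directions. HK2, the inducible hexokinase, was 16.6, 19.2 and 18.7 FPKM in KO1 and 35.3, 36.4 and 35.4 in WT. LDHA, lactate dehydrogenase A, was 273.8, 285.4 and 299.8 FPKM in KO1 and 516.0, 495.3 and 495.8 in WT. SLC2A1, the glucose transporter GLUT1, fell by 0.54. Other glycolytic enzymes rose, with ENO1 from 612.0 ± 7.99 to 841.0 ± 51.9 FPKM (SD, n = 3), PKM by 0.54 and PGK1 by 0.36. PFKFB3, which makes the activator of phosphofructokinase, rose by 0.73 and PDK3, which inhibits pyruvate dehydrogenase, by 0.80. SLC16A3, a lactate exporter, rose by 0.71, and was chosen after its value was seen. Of 28 genes of glucose uptake and glycolysis tested, 15 rose (53.6%, beside 35.7% of all genes) and 4 fell (14.3%, beside 19.4%). The other 9 were not called, and the median was 0.18. Of 18 tested hypoxia response genes 1 rose (5.56%, beside 35.7% of all genes) and 9 fell (50%, beside 19.4%), with a median of -0.15. Among the falls were PDK1 (-0.50), NDRG1 (-0.46) and DDIT4 (-0.36). None of the list changed by 1.5-fold.

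Mitochondrial genes moved little. Of 76 oxidative phosphorylation genes 16 rose (21.1%, beside 35.7% of all genes) and 12 fell (15.8%, beside 19.4%). None changed by 1.5-fold, and the median was 0.02. With the replicate block 20 fell, and after scaling to a common median 8 rose and 22 fell. Without KO1 replicate 2, WT replicate 2 or WT replicate 3 the falls were 6, 7 and 7. ATP5F1A, an ATP synthase subunit, fell by 0.35 and ATP5MF, another, rose by 0.40. Of 27 genes of the tricarboxylic acid cycle and its shuttles 2 rose (7.41%) and 8 fell (29.6%). MDH1 was lower by 0.39 and IDH1 by 0.34, and 15 genes of the list fell after scaling to a common median. Fatty acid oxidation had 9 rises (27.3%) and 11 falls (33.3%) among 33 genes, with large differences in single genes. Without WT replicate 2 the rises were 5. ACAA2, the mitochondrial thiolase, fell from 14.8 ± 1.41 to 5.56 ± 0.641 FPKM (SD, n = 3), and ETFB, an electron carrier, from 7.59 ± 1.19 to 2.53 ± 0.555. PPARGC1A, the coactivator PGC-1 alpha, fell by 0.72. ACOT2, a mitochondrial acyl-CoA thioesterase, rose by 1.20, from 0.11 ± 0.0436 to 1.56 ± 0.107 FPKM. It passed the filter through KO1 alone, which fixed its direction. FASN, fatty acid synthase, rose by 0.66. Of 29 antioxidant genes 16 rose (55.2%) and 7 fell (24.1%), and PRDX2, a peroxiredoxin, rose from 124.5 ± 5.30 to 240.4 ± 11.5 FPKM. NQO1, a quinone reductase, rose by 0.79, and GSTP1, a glutathione transferase, by 0.61.

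KO1 kept the plasma cell markers at a somewhat lower level. Of 31 tested plasma cell identity genes 6 rose (19.4%, beside 35.7% of all genes) and 18 fell (58.1%, beside 19.4%), with a median of -0.21. IRF4, the transcription factor on which myeloma cells depend, was 337.0, 347.9 and 338.5 FPKM in KO1 and 474.0, 472.6 and 474.4 in WT (-0.47). SDC1, the surface marker CD138, fell by 0.29 and TNFRSF17, the receptor BCMA, by 0.31. PRDM1, which encodes BLIMP1, fell by 0.16, and CD38 by 0.21 from 10.7 ± 0.523 FPKM. Both calls rest on single libraries, with a limma adjusted p of 0.0538 for PRDM1 without KO1 replicate 3 and 0.0772 without WT replicate 2, and for CD38 of 0.0635 without KO1 replicate 1 and 0.0627 without WT replicate 1. JCHAIN, the joining chain of secreted antibody, was 4534.8 to 4999.8 FPKM in KO1 and 4558.9 to 4811.7 in WT and was not called. The genes that rose included CD79B of the B cell receptor, from 2.67 ± 0.183 to 9.01 ± 0.207 FPKM (SD, n = 3), and the adhesion genes CD44 (0.78) and ITGB7 (0.73), while SEC11C, a signal peptidase subunit, fell by 0.62. Of the genes that mark the translocation of this line, FGFR3 fell by 0.35. NSD2 (0.10, limma adjusted p = 0.0566) and CCND2 (0.11, adjusted p = 0.0804) were not called, and with the replicate block both passed, at limma adjusted p = 0.0137 and 0.0380. CCND2 also passed without KO1 replicate 3 (adjusted p = 0.0423).

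Several defining markers of other cell types were at or near 0, while other members of the same lists were expressed. Over the 6 libraries MS4A1 and LCK were 0 throughout, CD3E was at most 0.20 FPKM, CD2 at most 0.12, CD14 at most 0.12 and EPCAM at most 0.04. Of 34 T and NK cell genes 7 were tested and 5 rose (71.4%, beside 35.7% of all genes). They were THEMIS and CD7, described above, VAV1, a guanine exchange factor of blood cells (from 2.70 ± 0.140 to 11.3 ± 0.153 FPKM), RUNX3 (0.73) and LEF1 (0.22), transcription factors. LEF1 was chosen after its value was seen. THEMIS passed the filter of 1 FPKM through KO1 alone, so the filter fixed its direction. A further 21 genes of the list were below the filter. The summed level of all 28 T and NK cell genes in the table was 96.1 to 105.8 FPKM in KO1 and 56.3 to 62.1 in WT. That of the 17 B cell markers in the table was 50.4 to 54.2 in KO1 and 42.3 to 44.8 in WT, most of it SPN, and that of 18 stromal and endothelial markers 1625 to 1638 and 2031 to 2153, nearly all of it VIM. The part of these levels in the differences was not tested. HBB, a globin, was 5.86 to 7.49 FPKM in KO1 and 8.37 to 10.7 in WT, and fell by 0.39.

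Of 28 tested adhesion and matrix genes 14 rose (50%, beside 35.7% of all genes) and 7 fell (25%, beside 19.4%). By 1.5-fold or more 9 rose and 3 fell. ITGAL, the integrin subunit of LFA-1, rose from 3.12 ± 0.409 to 8.76 ± 0.157 FPKM (SD, n = 3). LGALS1, the secreted lectin galectin-1, was 102.7, 101.9 and 110.4 FPKM in KO1 and 245.7, 247.7 and 266.2 in WT. VIM, the intermediate filament vimentin, fell by 0.36. Of 18 tested interferon-stimulated genes 3 rose (16.7%, beside 35.7% of all genes) and 11 fell (61.1%, beside 19.4%), with a median of -0.33. MX1 (0.80) and MX2 (0.96), antiviral GTPases, rose while ISG20, an exonuclease (-0.92), and IFI16, a DNA sensor (-0.70), fell, all 4 below 6 FPKM in every library. ACKR3, a scavenging receptor of the chemokine CXCL12, was 3.84, 3.58 and 4.50 FPKM in KO1 and 0.13, 0.14 and 0.11 in WT. ACKR3 passed the filter through KO1 alone and ISG20 through WT alone, which fixed their directions. Of 17 tested BCL2 family genes 6 rose (35.3%, beside 35.7% of all genes) and 5 fell (29.4%, beside 19.4%). BMF, a BH3-only death gene, fell from 42.3 ± 1.00 to 19.5 ± 0.956 FPKM and BID, another, rose from 6.09 ± 0.266 to 11.2 ± 0.550. MCL1 fell by 0.14 (limma adjusted p = 0.0286), but its adjusted p was 0.0726 without KO1 replicate 2, 0.0976 without KO1 replicate 3, 0.0778 without WT replicate 1 and 0.0625 without WT replicate 3. CDKN1A, which encodes p21, was not called (-0.11), and was called lower after scaling to a common median (-0.18, adjusted p = 0.0242).

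Chromatin genes mostly had small rises. Of 42 DNA methylation and Polycomb genes 24 rose (57.1%, beside 35.7% of all genes) and 2 fell (4.76%, beside 19.4%), with a median of 0.19. After scaling to a common median 14 rose and 3 fell, and without KO1 replicate 1, 2 or 3 or WT replicate 2 only 1 fell. Of 18 tested cancer-testis antigens 9 rose (50%) and 4 fell (22.2%). Without any one of KO1 replicates 1 and 2 or WT replicates 1, 2 and 3 the falls were 2. PAGE5 rose from 48.3 ± 2.48 to 93.7 ± 4.24 FPKM (SD, n = 3) and GAGE12J from 19.1 ± 1.92 to 35.7 ± 2.75. The GAGE genes are near-identical copies of each other, and their values are uncertain where reads were split between them. HIST2H2AA3 and HIST2H2AA4, histone H2A copies listed with the same value in every library, rose by 0.48.

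**Figure D3:**
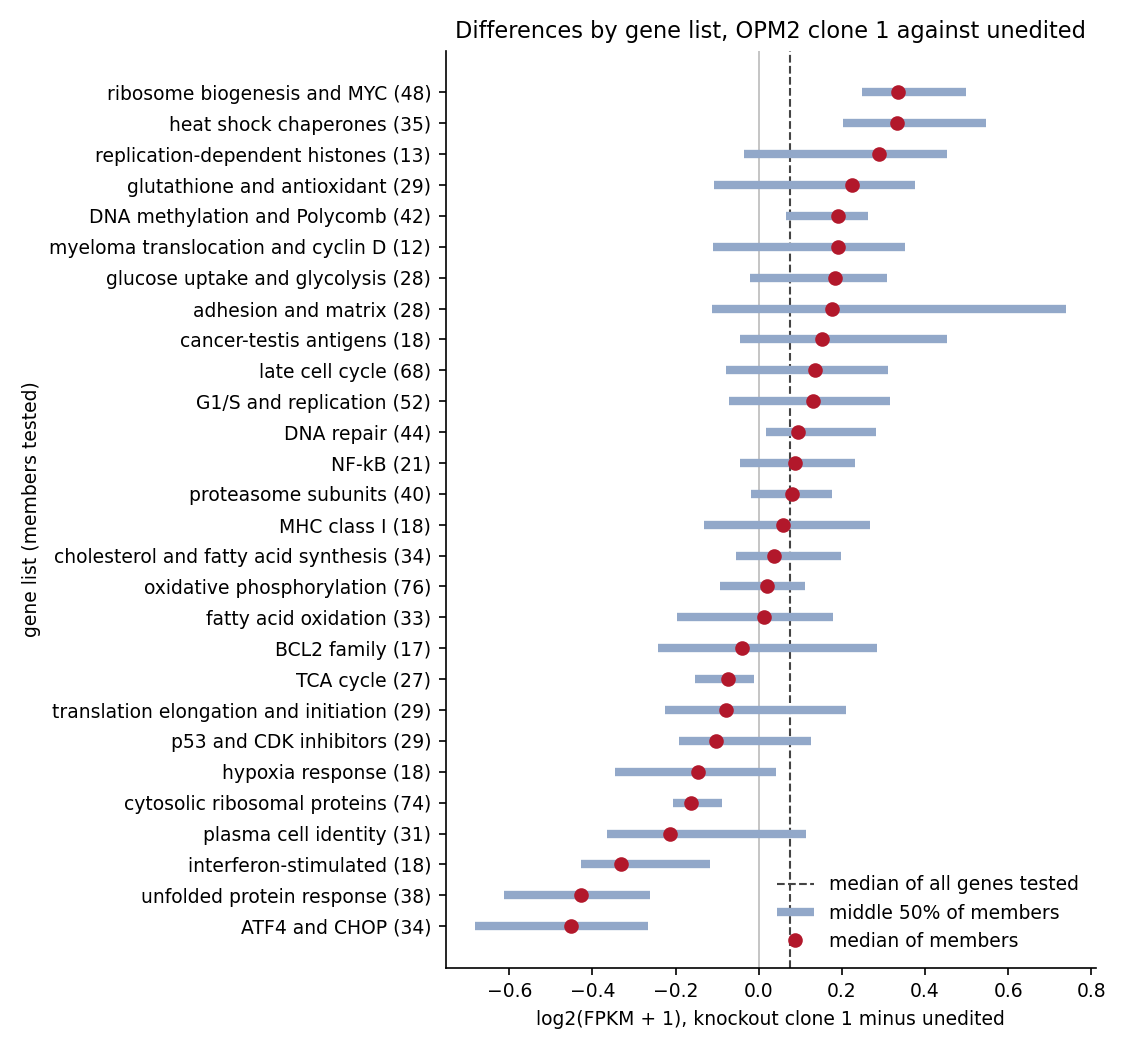
Differences in log2(FPKM + 1), KO1 minus WT, for the 28 gene lists with 10 or more tested members. Dots are medians, bars span the middle 50% of members, and the dashed line is the median of all 10130 genes at 0.08. The lists of the unfolded protein response and of ATF4 and CHOP lie lowest, and those of ribosome biogenesis and heat shock chaperones highest.

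Differences were also arranged along chromosomes. Tested genes were put in the order of the RefSeq annotation of GRCh38.p14, in 832 full blocks of 12 neighbours, after single gene values had been seen, so the medians are given as a description. The middle 90% of block medians lay between -0.15 and 0.27. The 7 lowest blocks of the 832 were all on chromosome 22. Of the 244 tested genes of chromosome 22, 108 fell (44.3%) and 47 rose.

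The low genes of chromosome 22 formed separate stretches. The 60 tested genes from HIRA to CHEK2 had a median difference of -0.37, with 43 lower and 2 higher. The median over these genes was -0.38, -0.33 and -0.35 in the 3 KO1 libraries and within 0.05 of 0 in the 3 WT libraries, each library taken against the WT mean. The next 36 genes, HSCB to YWHAH, had a median of 0.07, with 6 lower and 12 higher. The 24 genes from RTCB to PDXP were again low, with a median of -0.40, 16 lower and none higher. The 24 genes from TRMU to SCO2, farther along, had a median of -0.29. In the same 60 genes from HIRA to CHEK2 the medians were -0.21, -0.23 and -0.09 in KO1EV, -0.47, -0.45 and -0.49 in KO1R, and 0.23, 0.22 and 0.56 in KO2. The unfolded protein response genes SDF2L1, DERL3 and CRELD2 lie in low blocks of chromosome 22. Of the 34 members of that list on other chromosomes 32 fell, with a median of -0.42.

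A longer stretch of chromosome 11 was also lower in KO1. Its 156 tested genes from CHID1 to FNBP4 had a median difference of -0.19, with 93 lower (59.6%) and 20 higher. The medians of single libraries were -0.18, -0.20 and -0.21 in KO1. They lay between 0.02 and 0.04 in KO1EV, between 0.00 and 0.04 in KO1R and between -0.03 and 0.01 in KO2. RPS13 and RPL27A of the ribosomal proteins lie in this stretch, and the other 72 members of their list had a median of -0.16. On chromosome 14 the 36 tested genes from VIPAS39 to GON7, which include SEL1L, had a median of -0.17, with 17 lower and 4 higher, and medians of 0.22 to 0.25 in the KO2 libraries. On chromosome 18, 63 of 141 tested genes fell (44.7%), with a median of -0.12. At the other end of the ranking, the highest block had a median of 0.88 and ran from CCDC22 to NUDT11 on chromosome X. It holds the GAGE genes, and its 12 genes are partly copies of each other. DNA copy number was not measured in these files.

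**Figure D4:**
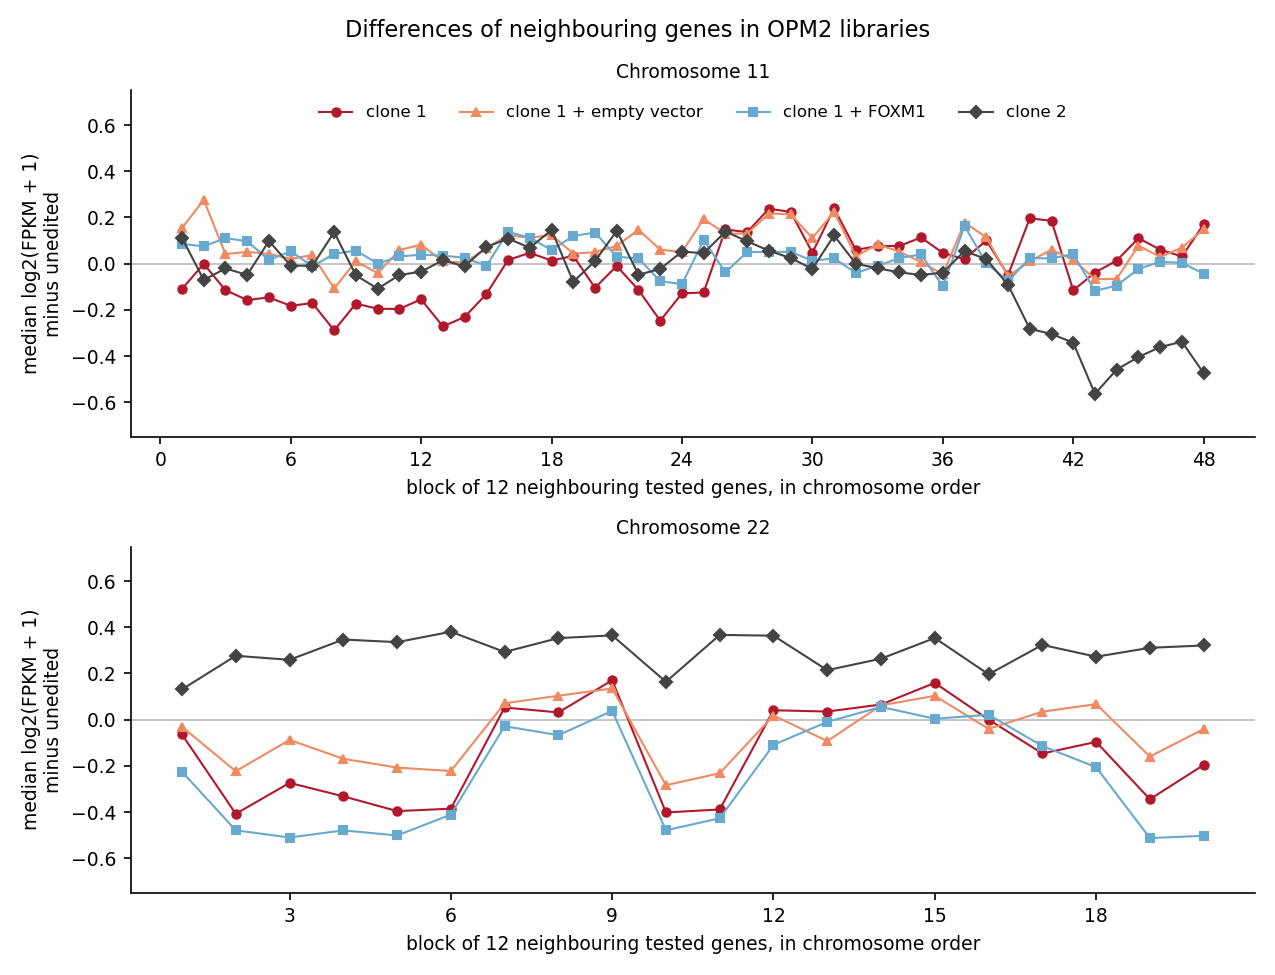
Median difference in log2(FPKM + 1) from WT for blocks of 12 neighbouring tested genes along chromosomes 11 and 22, in chromosome order, for KO1, KO1EV, KO1R and KO2, which share the same WT libraries. On chromosome 22 KO1 drops to about -0.4 in separate stretches and returns to near 0 between them. On chromosome 11 KO1 runs below 0 over the first 15 blocks.

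The Delta47 KO1 comparison shared some genes with OPM2. In Delta47 the deposited values name no unit and are called the authors' expression value. Of 10792 genes tested there 53.5% were called, 29.4% higher and 24.1% lower, and 2.4% were higher and 3.05% lower at 1.5-fold or more. Among 9358 genes tested in both lines, 403 rose by 1.5-fold or more in OPM2 KO1 and 154 in Delta47 KO1, and 24 did so in both (5.96% of the OPM2 list and 15.6% of the Delta47 list). For falls the numbers were 177, 226 and 23 (12.99% and 10.2%). Over all 9358 genes the Spearman correlation of the 2 differences was -0.06, across genes, which are not independent replicates.

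FOXM1 differed by -0.88 in Delta47, close to its -0.93 in OPM2. CDC25B (-0.83), PLK1 (-0.98), CCNB1 (-0.57) and GPSM2 (-0.86) fell in Delta47 too, as did HK2 (-1.22), LDHA (-0.60), SLC2A1 (-1.46), CCL3 (-1.83), GLIPR1 (-1.04), BMF (-0.61) and IFI16 (-0.66). PDIA2 rose by 2.10 there, DHRS2 by 0.66 and CD79B by 0.78. The stress gene lists had other counts in Delta47. Of 37 unfolded protein response genes tested in Delta47, 17 rose and 8 fell (median 0.05), and of 33 ATF4 and CHOP genes 6 rose and 18 fell (median -0.13). Ribosome biogenesis genes had 10 rises and 16 falls among 48, heat shock chaperones 7 and 12 among 35, and ribosomal protein genes 50 and 5 among 74. The difference between the lines in these lists was not tested, since their tables were normalised separately. The low stretches of chromosomes 22 and 11 in OPM2 KO1 had Delta47 medians of -0.01 (HIRA to CHEK2), 0.02 (RTCB to PDXP) and 0.01 (CHID1 to FNBP4).

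**Figure D5:**
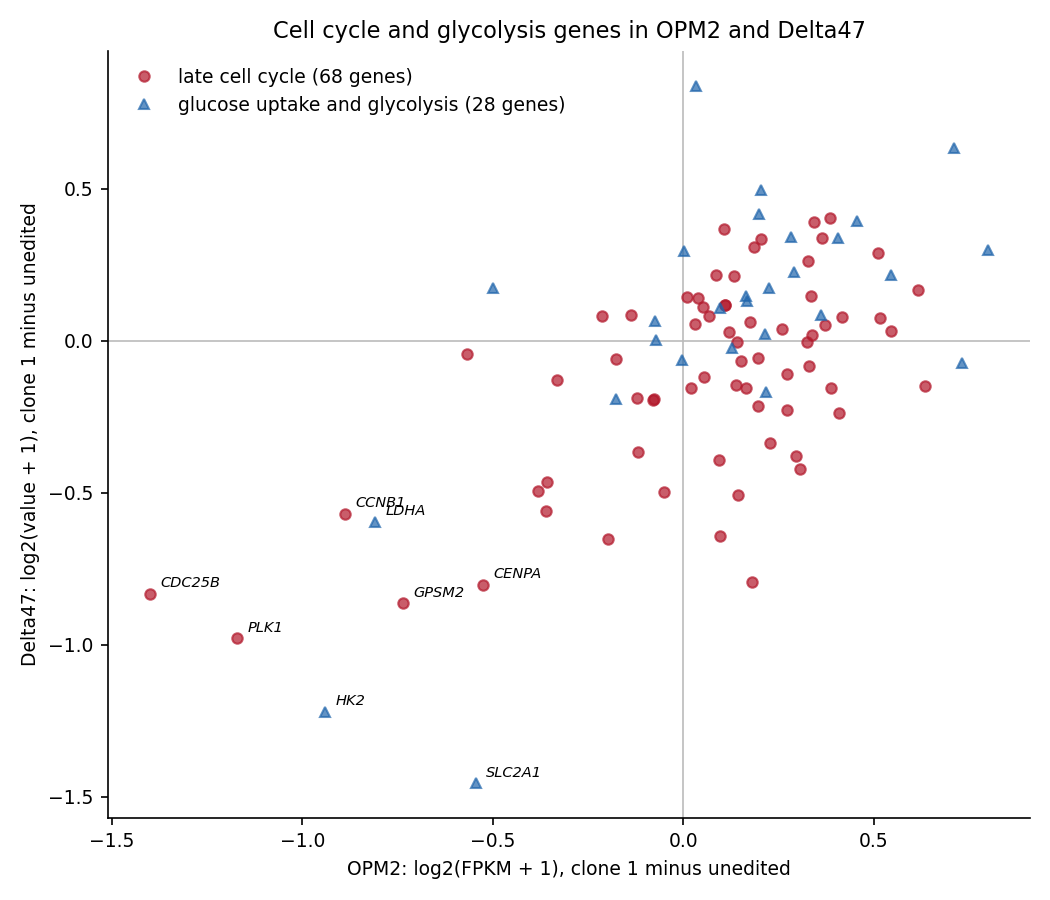
Difference of KO1 from WT for late cell cycle genes (circles) and genes of glucose uptake and glycolysis (triangles), in OPM2 on the horizontal axis, log2(FPKM + 1), and in Delta47 on the vertical axis, log2(value + 1). CDC25B, PLK1, CCNB1, GPSM2, CENPA, LDHA, HK2 and SLC2A1 are low in both lines, and most other genes lie between -0.5 and 0.5 in each.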

How the data were processed

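Poly-A RNA was sequenced from 15 OPM2 libraries and 15 of Delta47. For OPM2 the authors deposited FPKM per gene. For Delta47 they deposited a normalised expression signal whose unit the file does not name. Genome build hg19 is listed per the submitters' processing notes, and for the aligner and counter the source text is silent (not given in the sources used here). In Delta47, 6 columns of per-sample values were not used. Gene symbols turned into dates by a spreadsheet were restored for 23 genes in OPM2 and 24 in Delta47.

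Values were tested as log2(value + 1) with limma 3.58.1 in R 4.3.3, two-sided, with a trend in the spread and Benjamini-Hochberg adjustment over all genes with a value of 1 or more in 3 or more of the 6 libraries. Fold changes on this scale understate those of low genes. A gene below 1 in every library of a group passed the filter through the other group alone, which fixed its direction beforehand. With 3 libraries a group, an exact permutation test cannot go below 0.1 and was not used. On simulated data for the OPM2 comparison (10130 genes), 91.0% of 67 genes changed 1.5-fold and 98.5% of 67 changed 2-fold were recovered. In these data 9 unchanged genes were called. The noise was drawn independently from the spread of the same libraries, and few genes were changed. Pairing and shifts shared by a whole library were left out, so the simulation cannot give the false calls of the real comparison. The replicate numbers come from the labels. Deviations from the group means of same-numbered KO1 and WT libraries had correlations of 0.426, 0.165 and 0.213 across genes. The numbers may therefore pair the libraries, but the main fit held no term for the number. KO1 replicate 2 correlated more with a WT library of another number (0.228), so the pairing is weak, and a fit with the number as a block was an alternative.

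Named were FOXM1, the 12 largest rises and falls among called genes with libraries that do not overlap and a mean of 5 FPKM or more in a group, up to 4 called members of each list, by adjusted p and at 1.5-fold where there were any, and a fixed set of genes. The members and lists were chosen with earlier results of these data known. Alternatives were other pseudocounts, filters, scalings, libraries in the fit and single libraries left out. Promoter windows and neighbour order are from RefSeq, GRCh38.p14, matched by gene ID. A few single-gene results are not reported here.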

Additional observations from a re-analysis of the deposited data

Results flagged for a closer look

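Of the 138 genes named by the rule, 91 had KO1 and WT libraries that did not overlap in either line. For 53 the KO1 libraries lay on the same side of WT in both lines, and for 38 on opposite sides. In OPM2 alone 61.1% of all tested genes had libraries that did not overlap, and the share in both lines was not counted. The rule chose mostly called genes, so these counts describe the named genes alone. The difference between the lines was not tested, because the tables were normalised separately, and each line is represented by 1 clone.

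The first number for each gene is the difference in OPM2 and the other that in Delta47. Every OPM2 KO1 library was above, and every Delta47 KO1 library below, its WT libraries for PRKDC (0.75 and -1.22), MT1E (2.80 and -0.95), FASN (0.66 and -0.94), MCM4 (0.59 and -0.66), CCND2 (0.11 and -0.43), HIST1H2BK (0.45 and -0.32) and NSD2 (0.10 and -0.26). Also higher in OPM2 and lower in Delta47 were MYC (0.34 and -0.21), LYAR (0.66 and -0.20), NOP2 (0.77 and -0.18), BUB1B (0.64 and -0.15), MX1 (0.80 and -0.15), PSME4 (0.53 and -0.14) and HSP90AA1 (0.66 and -0.14). To these belong PSME3 (0.38 and -0.10), SKP2 (0.14 and -0.10) and PFKFB3 (0.73 and -0.075).

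The opposite order, lower in OPM2 KO1 and higher in Delta47 KO1, held for SDC1 (-0.29 and 1.10), ACAA2 (-1.27 and 1.03), LGALS1 (-1.26 and 1.00), DDIT4 (-0.36 and 0.72), ATP5F1A (-0.35 and 0.57), SEC11C (-0.62 and 0.57) and CD38 (-0.21 and 0.54). Further such genes were ISG20 (-0.92 and 0.49), ETFB (-1.29 and 0.45), NMRAL1 (-2.51 and 0.34), TRIB3 (-1.49 and 0.33), INHBE (-1.28 and 0.32), IDH1 (-0.34 and 0.30) and GNG10 (-2.27 and 0.23). Others were GOT1 (-0.38 and 0.20), ME2 (-0.31 and 0.18), PDK1 (-0.50 and 0.17), EIF4EBP1 (-0.74 and 0.15), ERN1 (-1.15 and 0.11) and COX8A (-0.36 and 0.11).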

How the results depend on the processing

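None of the 138 genes named by the rule changed direction in the other settings in which it was tested, 17 for most and 16 for the 11 genes below the filter at 5 FPKM. FOXM1 fell in all 17, by 0.90 to 1.00, with a highest limma adjusted p of 6.94e-06. With a pseudocount of 5 the genes changed by 1.5-fold or more were 266, with 149 higher and 117 lower, since a larger pseudocount shrinks the differences of low genes. With the filter at 5 FPKM 302 were higher by 1.5-fold, with fewer genes tested. With all 15 OPM2 libraries in the fit 2161 genes were called, 1476 higher and 685 lower, 141 were lower by 1.5-fold, 38 named genes lost their call, and 44 of 70 list counts moved by over 1.5 times. That fit includes the 2 libraries that stand apart. Without them 136 named genes kept their side of the threshold, and 1 list count moved. Leaving out each replicate in turn gave 4672 to 5435 called genes (3029 to 3522 higher, 1643 to 1913 lower) and 686 to 773 at 1.5-fold (460 to 543 higher, 218 to 240 lower). In Delta47 the called genes ranged from 4697 to 5855. With the replicate number as a block 6493 genes were called in OPM2. Among the named genes the block changed the calls of CENPF, MKI67, NSD2 and CCND2 and no other, and among the list counts it moved oxidative phosphorylation (20 lower), epithelial markers (1 higher) and histones (1 lower). Removal of the trend with GC content and length, chosen after seeing the data, changed the calls of 6 named genes. The depth of the libraries is unknown from FPKM, so the precision of low levels rests on the replicates alone.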
